A study of Mus musculus with 2 samples.

Results

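Tbx3, Tbx5 and T are T-box genes, and the macroH2A1 peaks at and around them make up 18 of the 2560 peaks in the deposited list. The peaks were chosen by their assigned gene and their position. They comprise the 7 peaks that the list assigns to Tbx3, Tbx5 or T, and every other peak on chromosome 5 between 119.3 and 120.7 Mb (mouse build mm9), a stretch of 1.4 Mb around Tbx3 and Tbx5. That stretch held 17 peaks and the T gene on chromosome 17 had 1. Where these peaks lie was known when they were chosen, so their number and spacing are a description and carry no test.

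The peaks come from ChIP-seq, the sequencing of DNA fragments recovered with an antibody from sheared chromatin. The cells were E14, a widely used line of mouse embryonic stem cells. The study has 2 libraries: 1 made with an antibody against part of macroH2A1, and 1 made with control IgG. Cells of both libraries had no treatment and grew on gelatine-coated plates, in medium with 20% serum and 1000 U/ml leukemia inhibitory factor (LIF), a cytokine that keeps mouse stem cells undifferentiated. With 1 library a group there is no replicate error and no test between conditions. The list gives the position of each peak and its assigned gene, with no read count or enrichment, so a peak's strength, the depth of the libraries and the level of IgG signal at these sites are unknown here.

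MacroH2A1 is a variant of the histone H2A with a large globular macro domain attached, and it is known mostly from silent chromatin such as the inactive X chromosome. T-box proteins are transcription factors that share a DNA-binding domain, the T-box, and many of them direct early steps of development. Tbx3 supports self-renewal of mouse embryonic stem cells and later acts in limb, heart and mammary gland. Tbx5 is required for the heart and the forelimb. T, also called Brachyury, is a marker of early mesoderm and is needed for the notochord and tail.

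No peak covered the start of Tbx3, Tbx5 or T, and none lay within the Tbx3 or T gene. Over the whole list, 1.17% of peaks covered the start of their assigned gene. The closest peak to any of the 3 starts lay 3.08 kb into Tbx5. Of the 18 peaks, 3 lay within 10 kb of the start of the gene they were assigned to, against 23.6% of all peaks. Only 1 of these 3 was assigned to a T-box gene, Tbx5. The gap to the assigned start had a median of 40.9 kb over the 18 peaks and 32.2 kb over the rest of the list. Over the 7 peaks assigned to Tbx3, Tbx5 or T it was 36.6 kb. By the authors' classes, 10 of the 18 peaks were downstream of their assigned gene, 5 upstream and 3 inside. Over all peaks these classes held 32.6%, 51.4% and 14.2%. The 10 downstream peaks include 8 assigned to a single gene without a symbol, described below.

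Tbx5 carried 5 peaks, which ran from upstream of the gene through its body and past its end. Its deposited coordinates are 120284672 to 120334479 on chromosome 5 (build mm9), a length of 49808 bp on the forward strand. The upstream peak lay at 120202300 to 120203800, 80.9 kb before the start, and was 1501 bp wide. The first peak inside the gene, at 120287750 to 120289300, was 1551 bp wide and had its midpoint 7.74% of the way along the gene. The others inside lay at 120313550 to 120315200 and 120321300 to 120322950. Both were 1651 bp wide, with midpoints 59.6% and 75.2% along the gene. These 3 peaks together covered 9.74% of the gene's length. The fifth peak, at 120339350 to 120342300, began 4.87 kb beyond the gene end. At 2951 bp it was the widest of the 18 and, with 1 other peak of that width, joint 18th widest of the 2560 peaks of the list.

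The 5 Tbx5 peaks were thus unevenly spaced. From the first peak inside the gene to the one past its end the gaps between neighbours were 24.2, 6.10 and 16.4 kb, so 4 peaks fell within 54.6 kb. The upstream peak stood 83.9 kb before them. It lay almost midway between the starts of Tbx3 and Tbx5: its nearest base was 81.6 kb from the start of Tbx3 and 80.9 kb from that of Tbx5. The difference of 750 bp was less than the width of the peak. Measured from the peak's lower edge, as in the deposited distances, the start of Tbx3 was the closer (81.6 kb, against 82.4 kb to Tbx5), so its assignment to either gene turns on how the distance is taken. It was also the only peak between the end of Tbx3 and the start of Tbx5, a distance of 150 kb.

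Tbx3 had 1 assigned peak, and it was distant. The gene spans 120120678 to 120134733, 14056 bp on the forward strand. Its peak lay upstream at 120018000 to 120019300, 101 kb from the start, and was 1301 bp wide, narrower than 72.6% of the list. No other peak lay within 100 kb of it, as for 70.0% of the list. Its neighbours were 162 kb to the left and 183 kb to the right, closer than the list's median gap of 490 kb. Within 700 kb it had 16 other peaks, against a list median of 2. Among named genes with a single peak of the upstream class, the median gap to the start was 18.2 kb over 662 genes other than Tbx3.

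Most peaks upstream of Tbx3 were assigned elsewhere. The list assigns each peak to the nearest gene start, and 9 peaks of this stretch went to ENSMUSG00000084548, a gene without a symbol that spans 117 bp (119747254 to 119747370). It was the gene with most peaks in the list, and the next of the 724 genes without a symbol had 6. Of its 9 peaks, 1 lay 107 kb upstream of it, at 119639200 to 119640500. The other 8 lay downstream of it and upstream of Tbx3, in a run described next. Counting only the starts of Med13l, Tbx3, Tbx5 and Rbm19, Tbx3 was nearest for 10 of the 17 peaks, Tbx5 for 5, and Med13l and Rbm19 for 1 each. The number of peaks given to Tbx3 therefore depends on which gene starts are counted. The peaks added to it this way lie 265 to 480 kb from its start. Genes of noncoding RNAs that RefSeq places between Med13l and Tbx3 were left out of this count. In RefSeq's genes for GRCm38.p6, Tbx3 and Tbx5 are the only protein-coding genes between Med13l and Rbm19. This gene set of a later assembly was used here for gene order and for the number of protein-coding genes.

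**Figure D1:**
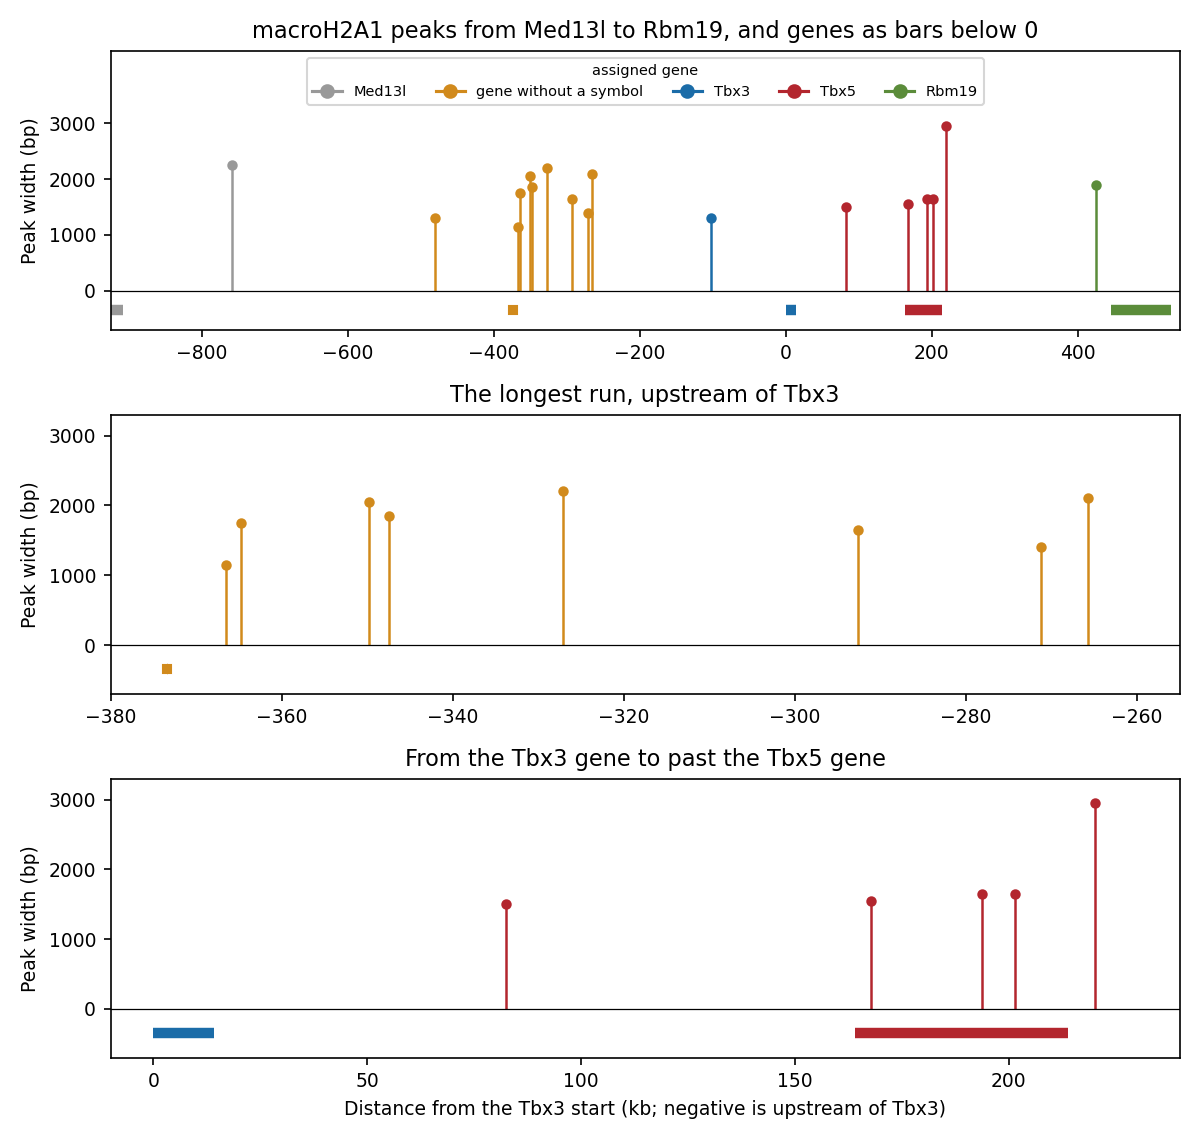
Each peak is a stem at its midpoint, by distance from the Tbx3 start in kb (x axis), with its width in bp as height (y axis), coloured by the gene the list assigns it to; thick bars or squares below 0 are the genes. The top panel shows the whole stretch, the middle the run of 8 peaks that ends 265 kb before the Tbx3 start, and the bottom the stretch from Tbx3 to past Tbx5, where 3 peaks lie inside Tbx5 and none inside Tbx3.

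The run upstream of Tbx3 held 8 peaks within 103 kb, from 119753550 to 119856050, and ended 265 kb before the Tbx3 start. Peaks covered 13.8% of its length, against 2.16% of the whole stretch of 1.4 Mb. It opened with a pair, at 119753550 to 119754700 (1151 bp wide) and 119755100 to 119756850 (1751 bp), which lay 399 bases apart. A second pair followed 13.0 kb on, at 119769850 to 119771900 (2051 bp) and 119772300 to 119774150 (1851 bp), also 399 bases apart. So close a spacing was rare in the list: 0.315% of gaps between neighbouring peaks (8 of 2538) were under 500 bases, and 2 of those 8 were these pairs. Each member of a pair counts as a peak here. Whether the peak caller split a single region was not tested, and joining the pairs would lower the count of the run.

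The remaining peaks of the run were more widely spaced. The fifth, at 119792450 to 119794650, was the widest of the run at 2201 bp. The sixth lay at 119827250 to 119828900 (1651 bp), after the widest gap of the run, 32.6 kb. The last 2, at 119848800 to 119850200 (1401 bp) and 119853950 to 119856050 (2101 bp), lay 3.75 kb apart. Each of the 8 peaks had the other 7 within 100 kb, the highest number for any peak in the list, whose median was 0. In all, 70.0% of the listed peaks had no other peak within 100 kb.

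With a limit of 50 kb between neighbours and close pairs counted as separate peaks, this run was the longest of the list. The next 2 had 6 peaks each, 1 at Sez6l, a neuronal membrane protein gene on chromosome 5, and 1 at Pax7, a muscle regulator on chromosome 4, its Klhdc7a neighbour and a gene without a symbol. The 4 clustered Tbx5 peaks formed the only other run of more than 1 peak in the stretch, and tied with 8 others in the list for sixth place. The remaining 5 peaks of the stretch stood alone. At a limit of 20 kb the longest run was shared, at 5 peaks, by the left part of the run upstream of Tbx3 and by Elfn1. At 100 kb a stretch that includes Sez6l held 9 peaks, more than the 8 upstream of Tbx3, which tied with a run of 8 that includes Pax7.

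The 17 peaks left 16 gaps, with a median of 22.1 kb (interquartile range 11.3 to 125 kb). In the rest of the list the median gap was 494 kb over 2522 gaps, and on chromosome 5 outside the stretch it was 270 kb over 233 gaps. Gaps of at most 20 kb made up 8 of the 16, against 5.79% of all gaps and 10.7% on chromosome 5 outside the stretch. Gaps of at most 50 kb made up 10 of 16, against 11.9% of all gaps and 20.6% on chromosome 5 outside the stretch. The widest gap of the stretch, 277 kb, separated the Med13l peak from the first peak of the gene without a symbol. Since the stretch was chosen for its peaks, these shares describe it and were not tested.

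**Figure D2:**
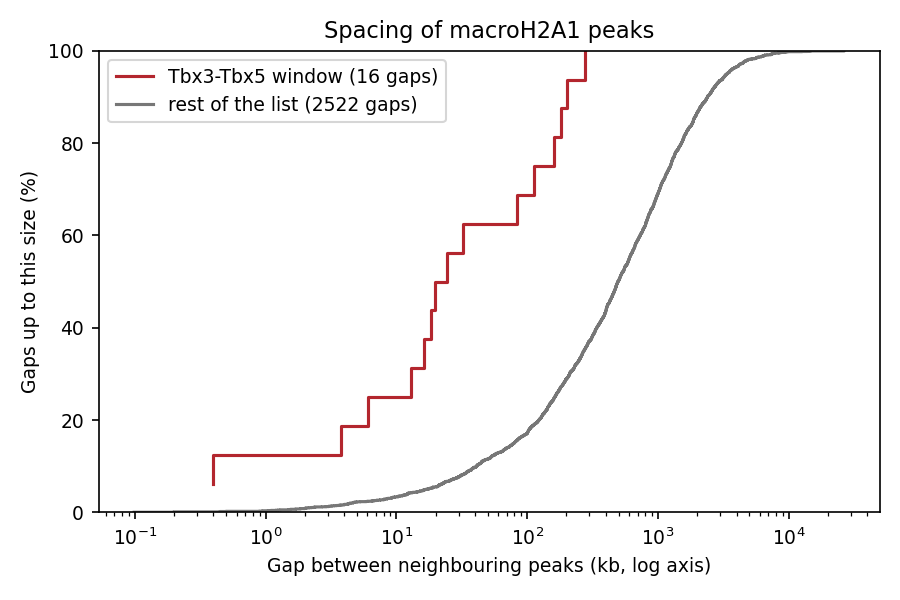
Cumulative share of gaps between neighbouring peaks (y axis, %) against gap size in kb (x axis, log scale), for the 16 gaps of the Tbx3 and Tbx5 stretch and the 2522 gaps of the rest of the list. The median is 22.1 kb in the stretch and 494 kb in the rest.

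Peak density in the stretch was 12.1 per Mb, against 1.58 per Mb on the rest of chromosome 5 and 1.04 per Mb over the whole list, from the first to the last peak of each chromosome. When the genome was divided into 1809 stretches of the same size, aligned to this one, it had the most peaks. No other stretch reached 17 (0.0553% of stretches, itself included), but 1 on chromosome 9 had 16 and another on chromosome 5 had 14. The other stretches had a median of 1 peak, and 612 had none. The bounds and the alignment were set on the stretch itself, which favours it in this ranking. Its count also takes the 2 close pairs upstream of Tbx3 as separate peaks, and no ranking with such pairs joined was made.

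**Figure D3:**
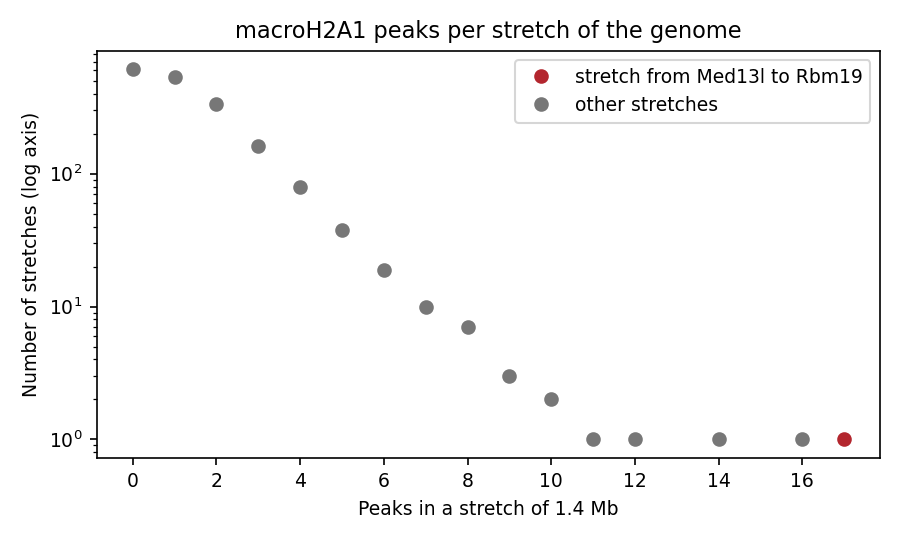
Number of stretches of 1.4 Mb (y axis, log scale) by the number of peaks they hold (x axis). The stretch around Tbx3 and Tbx5, in red, holds 17 peaks and the next one 16.

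The 2 outermost peaks of the stretch belong to its flanking genes. Med13l, which encodes a subunit of the Mediator coactivator complex, had a peak of 2251 bp at 119360200 to 119362450, 147 kb past its end. Rbm19, which encodes an RNA-binding protein of ribosome assembly, had a peak of 1901 bp at 120545500 to 120547400, 19.1 kb upstream of its start. No peak lay inside either gene. The bounds fell in open ground: the nearest peaks outside were 342 kb before the lower bound and 106 kb after the upper one, and those just within were 60.2 and 153 kb from the bounds.

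T had a single peak, and it stood alone. It lay upstream of the gene at 8610750 to 8612500 on chromosome 17, 14.8 kb before the start at 8627288, and was 1751 bp wide. The gene spans 8074 bp on the forward strand. The nearest other peaks were 549 kb to the left and 357 kb to the right, and 2 others lay within 700 kb, which equals the median of the list. By contrast, each Tbx5 peak had 18 others within 700 kb. The T peak also lay closer to its gene than the peak of Tbx3. The named genes with 1 upstream peak at the most similar gap were 1700122O11Rik at 14.7 kb, Nipal2 at 14.9 kb and the entry that joins Gm16519 and LOC639477 at 14.8 kb. For Tbx3 they were Nrbf2 at 102 kb, Arg1 at 99.7 kb and Amd2 at 104 kb. Likeness here is the difference between the gaps in this 1 library.

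Named genes with at least as many peaks as Tbx5 were Sez6l and Ajap1, a junction protein gene on chromosome 4, with 6 each, and Elfn1, a synaptic protein gene on chromosome 5, with 5. Their layouts differed. The 5 Tbx5 peaks spanned 140 kb and had upstream, inside and downstream members. The 6 of Ajap1 spanned 374 kb with 3 upstream, 3 downstream and none inside. Sez6l had 5 upstream and 1 inside over 111 kb, and the 5 of Elfn1 all lay inside the gene within 31.7 kb. The peak nearest to the gene start was 3.08 kb away at Tbx5, 12.4 kb at Ajap1, 15.7 kb at Elfn1 and 18.9 kb at Sez6l.

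The widths of the 18 peaks had a median of 1701 bp (interquartile range 1514 to 2014 bp, extremes 1151 and 2951 bp). The rest of the list had a median of 1551 bp (interquartile range 1301 to 1801 bp). Of the 18, 13 were at least as wide as the median of the list, as were 54.1% of all peaks. By gene the medians were 1751 bp over the 9 peaks of the gene without a symbol and 1651 bp over the 5 of Tbx5. The widths of the 18 overlapped broadly with those of the list, and they were not tested.

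**Figure D4:**
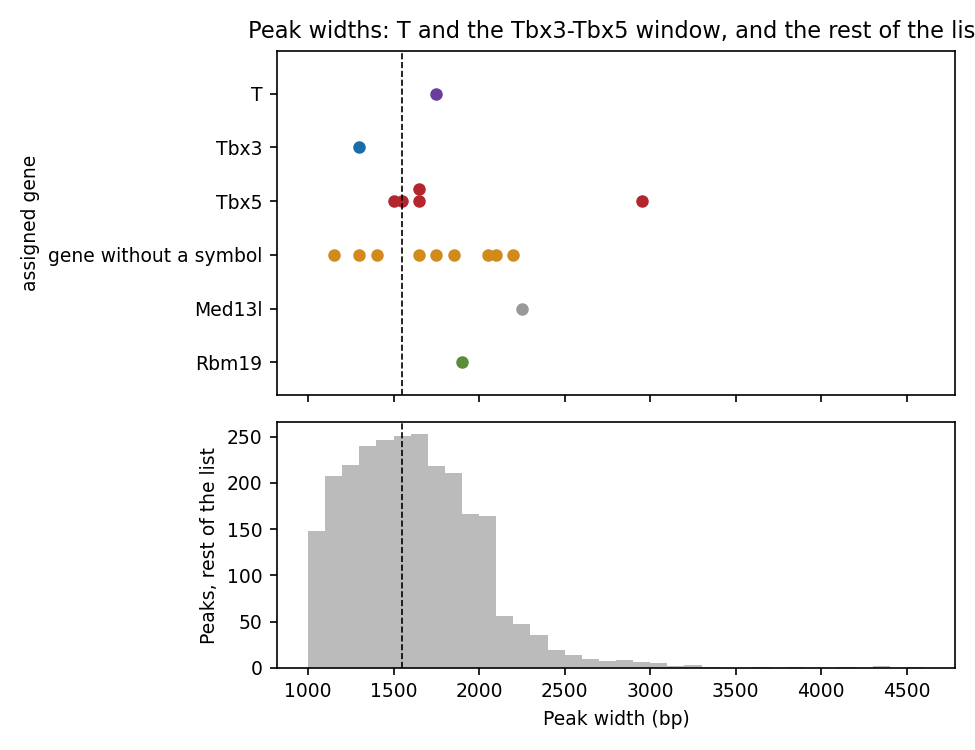
Peak widths in bp (x axis) of the 18 peaks, 1 point each by assigned gene (top), and of the 2542 other peaks as counts per 100 bp of width (bottom); the dashed line is the median of the other peaks, 1551 bp. The points lie on both sides of the line, with the Tbx5 peak of 2951 bp farthest to the right.

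Of 17 T-box genes, 6 had a peak in the list (35.3%), against 6.16% of protein-coding genes on chromosomes 1 to 19 and X (1333 of 21631). Without Tbx3, Tbx5 and T, chosen here for their peaks, 3 of 14 remained (21.4%). This list of the family was written with earlier results of these data known, and its share was not tested. Tbx4, a regulator of the hindlimb, had a peak inside the gene that began 0.526 kb past its start, at 85700450 to 85702100 on chromosome 11. Tbx20, a heart regulator, had 1 at 24587200 to 24589500 on chromosome 9, 8.45 kb upstream. With 2301 bp it was wider than all but 1 of the peaks of the family. Tbx15, which acts in skeletal development, had 1 at 99041050 to 99042100 on chromosome 3, 15.6 kb upstream. It was 1051 bp wide, the minimum of the list and the width of 148 peaks.

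None of the 3 stood in a run like that upstream of Tbx3. Tbx4 had 1 other peak within 700 kb, at 38.5 kb, which is inside the limit of 50 kb used for runs. Tbx15 and Tbx20 had 0 within 700 kb, as did 19.8% of the list. The 11 T-box genes without an assigned peak were Tbr1, Eomes, Tbx1, Tbx2, Tbx6, Tbx10, Tbx18, Tbx19, Tbx21, Tbx22 and Mga. Eomes, which acts with T in early mesoderm, and Tbx6, a regulator of somite formation, are among them. Absence from the list says only that no peak was assigned to a gene. A peak can be listed under a nearer gene start, as were the peaks 265 to 480 kb upstream of the Tbx3 start.

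**Figure D5:**
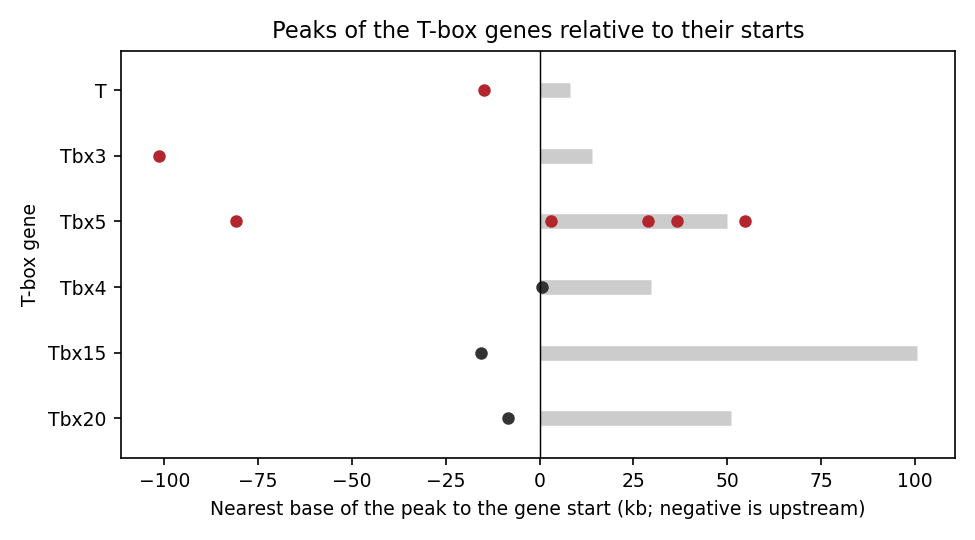
Distance in kb between the gene start and the closest end of each peak (x axis, negative upstream) for the 6 T-box genes with a peak (y axis); grey bars are the genes from start to end. Peaks of Tbx3, Tbx5 and T are red; that of Tbx4 lies closest to a start, at 0.526 kb, and that of Tbx3 farthest, at 101 kb.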

How the data were processed

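The authors' deposited table lists the peaks of the macroH2A1 library with their start, end, width and assigned gene. Reads were mapped with Bowtie to build NCBIM37 or mm9, as the submitters' processing notes say. Peaks carry names that start with CCAT, a peak caller, and the columns are those of the annotation package ChIPpeakAnno, per the file headers. No threshold or control of the caller is given in the sources used here. Every start and end is a multiple of 50 bp, which limits the resolution of every width and gap. No listed peak is narrower than 1051 bp, the width of 148 peaks. Narrower regions, if any were found, are absent from every count and width here.

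Gaps were computed between the edges of neighbouring distinct regions (2558 of 2560 rows), and distances between the deposited gene start and the closest end of the peak (0 where covered), with Python 3.11.15 and pandas 2.3.3. Code for gaps and runs was checked on simulated peaks. Coordinates are as deposited. Genes named are the 3 members, the genes assigned a peak in the stretch, T-box genes with a peak, and the genes most like each member by number of peaks or by gap. The T-box genes without a peak are named beyond this rule, to account for the whole family. Sez6l, Pax7, Klhdc7a and Elfn1, named for their runs, were chosen after their values were seen. The members and lists were chosen with earlier results of these data known. No sequence is shown, as no genome of this build was used here.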

Additional observations from a re-analysis of the deposited data

How the results depend on the processing

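Of 23 alternatives over 10 results, 18 stayed within 1.5 times the reported value and 5 did not. The stretch around Tbx3 and Tbx5 held 6 peaks when only those assigned to Tbx3 or Tbx5 were counted, by construction. Tbx3 had 0 peaks when peaks narrower than the list median were left out. It had 10 by the nearest start of Med13l, Tbx3, Tbx5 or Rbm19, an alternative chosen after seeing the data. The longest run held 5 peaks at a gap limit of 20 kb, where it splits. No alternative joined peaks that lie under 500 bases apart. T-box genes with a peak numbered 2, Tbx4 and Tbx5, when only peaks inside a gene or within 5 kb of its start counted. The share of all protein-coding genes under this limit was not computed, and the 6.16% given above has no such limit. No paired analysis was possible because each group has 1 library. The list has no scores, counts or replicates, so the strength of a peak and its recurrence were not measured.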
